A study of Mus musculus with 11 samples.

Results

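The platelet-derived growth factor (PDGF) system was examined as 6 genes, the receptors Pdgfra and Pdgfrb and the ligands Pdgfa, Pdgfb, Pdgfc and Pdgfd, which were found by symbol among the 21846 genes of the count table. Each library is 1 bulk RNA-seq measurement of a cultured mouse MamBo line. The lines stem from mammary tumors that arose in virgin females of the FVBhuHER2 strain, which carries a human HER2 transgene. The 5 HER2-positive libraries were MamBo89HER2stable, derived from tumor A (untreated parental cells, an untreated culture named AG3 and taken as the clone listed in the methods, and cultures with trastuzumab at 30 µg/ml either for 60 days or for 30 days followed by 30 days without it), and untreated MamBo43HER2labile, derived from tumor B. The 6 HER2-negative libraries were MamBo38HER2loss, derived in vivo from MamBo43 (2 untreated cultures and 1 of each trastuzumab schedule), and MamBo43 cells that had lost HER2 under either schedule (MamBo43 TRT). All lines were grown in medium with 20% serum. Each line is a single cell line, untreated MamBo43 is a single library, and MamBo43 TRT was described by the study as still holding some polygonal HER2-positive cells.

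PDGF ligands are disulfide-linked dimers that bind and dimerize receptor tyrosine kinases at the cell surface. The alpha receptor binds the A, B and C chains, and the beta receptor binds the B and D chains. In the mammary gland, as in other organs, the receptors are best known from mesenchymal cells (fibroblasts, pericytes and smooth muscle), which epithelial cells and endothelium supply with ligand. The A and B chains are matured inside the cell by proprotein convertases, while the C and D chains are secreted in a latent form that extracellular proteases activate. The question addressed here was in which lines a receptor and a ligand that binds it were expressed together.

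Libraries held 17040454 to 27127662 counts in all (median 20592201). Levels are given as CPM, the counts per 1000000 counts of the TMM-scaled library, and 3 counts corresponded to 0.114 to 0.179 CPM. A gene was called changed at an adjusted p under 0.1 in edgeR's quasi-likelihood test with Benjamini-Hochberg adjustment over all genes tested together with a log2 fold change of 1 or more in either direction. Of the mammary epithelial markers, the summed level was 2327 to 3715 CPM in MamBo89, 3135 CPM in untreated MamBo43, 1753 and 392 CPM in MamBo43 TRT (withdrawn and continuous trastuzumab), and 1.25 to 2.51 CPM in MamBo38. In MamBo38, 0 of the 7 epithelial markers reached 1 CPM in every library. There Cdh1 (0.834 to 1.52 CPM) and the keratin gene Krt18 (0.240 to 1.06 CPM) were very low. Krt5 and Krt19 were at 0 in MamBo38, but also at 0 in untreated MamBo43 and at no more than 0.0544 CPM in MamBo89. The library names carry a number code. It is the same in all MamBo43 and MamBo89 libraries and in untreated MamBo38 replicate 2, and differs in the other 3 MamBo38 libraries, so that code and line largely overlap.

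Pdgfra lies on mouse chromosome 5 (75152292 to 75198215, plus strand, GRCm38), Pdgfa on chromosome 5 (138976014 to 138997370, minus strand), Pdgfb on chromosome 15 (79995874 to 80014977, minus strand), Pdgfc on chromosome 3 (81036416 to 81214040, plus strand) and Pdgfd on chromosome 9 (6168584 to 6378850, plus strand). The library kit kept no strand, so that reads from a gene and its antisense partner cannot be told apart. The antisense gene 6330403L08Rik shared 18.7% of the 75-base windows of Pdgfa, Gm42802 and Gm42803 shared 4.05% of those of Pdgfra, and Gm16000 shared 1.46% of those of Pdgfc. For Pdgfb, Pdgfd and Pdgfrb the share was 0%. The level of Pdgfa is uncertain to that extent.

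The promoters of a receptor gene that was higher and of a ligand gene that was lower in HER2-negative libraries are shown (RefSeq, GRCm38.p6), from 250 bases before to 50 bases after the annotated start, 5′ to 3′ on the strand of the gene. The first is Pdgfra at chr5:75152001-75152300 and the second is Pdgfd at chr9:6168236-6168535. Capitals mark a match to any of 5 motifs searched on both strands (the TATA box as TATAAA, the CAAT box as CCAAT, the GC box as GGGCGG, the E2 box as CACCTG and the AP-1 site as TGANTCA).
Pdgfra: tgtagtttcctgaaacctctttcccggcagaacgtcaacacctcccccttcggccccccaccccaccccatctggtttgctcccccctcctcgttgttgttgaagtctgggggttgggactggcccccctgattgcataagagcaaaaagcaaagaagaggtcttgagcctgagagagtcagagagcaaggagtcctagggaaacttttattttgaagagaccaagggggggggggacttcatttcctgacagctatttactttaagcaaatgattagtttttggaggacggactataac
Pdgfd: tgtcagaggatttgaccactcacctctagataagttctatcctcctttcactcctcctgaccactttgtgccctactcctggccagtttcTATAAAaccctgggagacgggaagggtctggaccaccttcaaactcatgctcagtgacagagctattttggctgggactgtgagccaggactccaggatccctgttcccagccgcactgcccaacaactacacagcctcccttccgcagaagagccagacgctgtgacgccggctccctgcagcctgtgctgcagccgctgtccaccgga
The Pdgfd window held 1 match, a TATAAA that begins 160 bases before the start, and 13.6% of the 32851 mouse promoters of this length held this motif. The Pdgfra window held none of the 5 motifs, nor did that of Pdgfc, while both annotated starts of Pdgfa had GGGCGG (found in 35.7% of promoters). Promoters were searched for 4 of the 6 genes, with that of Pdgfrb left out and none on hand for Pdgfb.

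Both receptors were higher and 3 of the 4 ligands were lower in the HER2-negative than in the HER2-positive libraries, where 15.8% of genes tested were called higher and 17.0% lower. Of the 6 genes, 5 were called, against a background of 32.8% of the 12364 genes tested, and for 5 the groups did not overlap, against 34.9% of genes tested. The ligand Pdgfc was not called. Since the HER2-negative group holds only tumor B and the HER2-positive group mostly tumor A, line, tumor and HER2 status overlap in this comparison, and each line is given on its own.

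**Figure D1:**
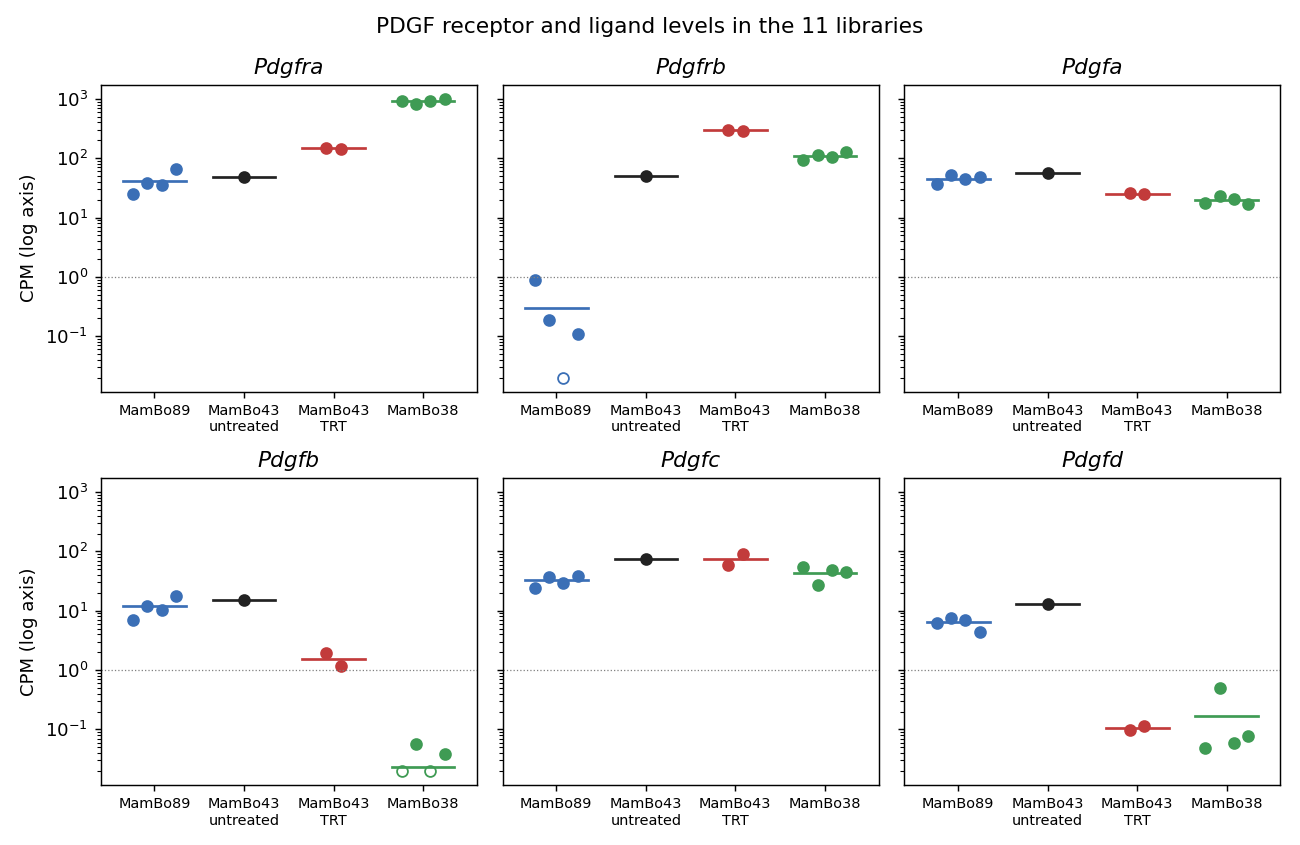
CPM on a log axis of each PDGF receptor and ligand gene, with 1 point per library and a line at the mean of each group (MamBo89, n = 4; untreated MamBo43, n = 1; MamBo43 TRT, n = 2; MamBo38, n = 4). Open points are libraries with 0 counts, drawn at the bottom of the axis, and the dotted line is 1 CPM. Pdgfrb was under 1 CPM in all 4 MamBo89 libraries and at 50.9 CPM or more in the other 7, while Pdgfb was under 0.1 CPM in MamBo38 alone.

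Pdgfra encodes the alpha receptor and was detected in all 11 libraries. In MamBo38 its level was 938 and 814 CPM in the untreated cultures, 930.3 CPM after withdrawal of trastuzumab and 999.9 CPM under continuous trastuzumab. In MamBo43 it was 48.0 CPM untreated and 146 CPM in each of the TRT cultures. In MamBo89 it was 24.5 CPM in AG3, 37.7 CPM in the parental cells, 35.2 CPM after withdrawal and 64.6 CPM under trastuzumab. The lowest HER2-negative library was thus above the highest HER2-positive one. The group means were 662 ± 405 CPM (SD, n = 6) and 42.0 ± 15.2 CPM (SD, n = 5). The log2 fold change was 3.97 (SE 0.61, adjusted p = 2.92e-04, edgeR). Within tumor B, which has a single HER2-positive library, it was 3.75 and not called.

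Pdgfrb, on chromosome 18 (61045150 to 61085061, plus strand), encodes the beta receptor, which the study singled out on these same samples, so that its direction here is not independent evidence. MamBo43 TRT had the highest levels, 298 CPM after withdrawal and 293 CPM under continuous trastuzumab. MamBo38 had 92.4 and 114 CPM untreated, 103 CPM after withdrawal and 129 CPM under trastuzumab. Untreated MamBo43 had 50.9 CPM. In MamBo89 there were 18 counts in AG3, 4 in the parental cells, 2 under trastuzumab and 0 after withdrawal, that is 0.877, 0.184, 0.109 and 0 CPM, the last of which allows a level of up to 0.175 CPM by counting error alone. All 6 HER2-negative libraries were above all 5 HER2-positive ones. The means were 171 ± 96.7 CPM (SD, n = 6) and 10.4 ± 22.6 CPM (SD, n = 5), and the log2 fold change was 4.02 (SE 1.53, adjusted p = 0.0452, edgeR). The HER2-positive mean rests on untreated MamBo43, without which the log2 fold change was 9.11. With tumor of origin as a covariate it was 1.74, and within the libraries of tumor B alone it was 1.72, neither of them called. Both values rest on untreated MamBo43, the single HER2-positive library of tumor B. They therefore cannot decide whether the difference holds within that tumor.

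Pdgfa encodes the A chain, a ligand of the alpha receptor, and was measured in every library. MamBo89 had 36.4 CPM in AG3, 51.1 CPM in the parental cells, 45.3 CPM after withdrawal and 48.6 CPM under trastuzumab. MamBo43 had 56.5 CPM untreated, 25.9 CPM after withdrawal and 24.9 CPM under trastuzumab. MamBo38 had 17.7 and 23.5 CPM untreated, 20.5 CPM after withdrawal and 17.0 CPM under trastuzumab. The HER2-negative libraries were all below the HER2-positive ones, with means of 21.6 ± 3.76 CPM (SD, n = 6) and 47.6 ± 7.49 CPM (SD, n = 5). The log2 fold change was -1.15 (SE 0.16, adjusted p = 1.47e-04, edgeR). It was -0.95 with the library code as a covariate and -0.93 among the libraries that share a code, both under the fold minimum.

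Pdgfb encodes the B chain, which binds both receptors. MamBo89 had 7.06 CPM in AG3, 12.2 CPM in the parental cells, 10.3 CPM after withdrawal and 17.7 CPM under trastuzumab. Untreated MamBo43 had 14.9 CPM, within that range. MamBo43 TRT had 1.91 CPM after withdrawal and 1.19 CPM under trastuzumab, from 39 and 31 counts. MamBo38 had 1 count in an untreated library and 1 under trastuzumab, and 0 counts in the other two, which left it at or under the level that 3 counts give. The HER2-negative mean was 0.532 ± 0.821 CPM (SD, n = 6) and the HER2-positive mean 12.4 ± 4.13 CPM (SD, n = 5). The log2 fold change was -4.52 (SE 1.12, adjusted p = 0.00589, edgeR). Within tumor B, which has a single HER2-positive library, it was -4.81 and no longer called.

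Pdgfd encodes the D chain, a ligand of the beta receptor. MamBo89 had 6.28 CPM in AG3, 7.69 CPM in the parental cells, 6.99 CPM after withdrawal and 4.41 CPM under trastuzumab. MamBo43 had 12.8 CPM untreated, and 0.0980 and 0.115 CPM in the TRT cultures (2 and 3 counts). MamBo38 had 1 and 9 counts untreated, 1 after withdrawal and 2 under trastuzumab. All HER2-negative libraries were thus under 1 CPM and all HER2-positive ones above 4 CPM. The means were 0.150 ± 0.174 CPM (SD, n = 6) and 7.62 ± 3.12 CPM (SD, n = 5), and the log2 fold change was -5.66 (SE 0.61, adjusted p = 3.05e-05, edgeR).

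Pdgfc encodes the C chain, a ligand of the alpha receptor, and was the member whose groups overlapped. MamBo43 had 75.2 CPM untreated, 59.7 CPM after withdrawal and 91.4 CPM under trastuzumab. MamBo38 had 53.8 and 27.1 CPM untreated, 48.7 CPM after withdrawal and 45.8 CPM under trastuzumab. MamBo89 had 24.2 CPM in AG3, 37.5 CPM in the parental cells, 29.8 CPM after withdrawal and 39.2 CPM under trastuzumab. The means were 54.4 ± 21.2 CPM (SD, n = 6) and 41.2 ± 20.0 CPM (SD, n = 5). The log2 fold change was 0.39 (SE 0.33, adjusted p = 0.342, edgeR). When tumor of origin entered the fit, the value was -0.47, again not called and resting on a single HER2-positive library of tumor B. All 3 MamBo43 libraries were above the other 8 libraries.

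**Figure D2:**
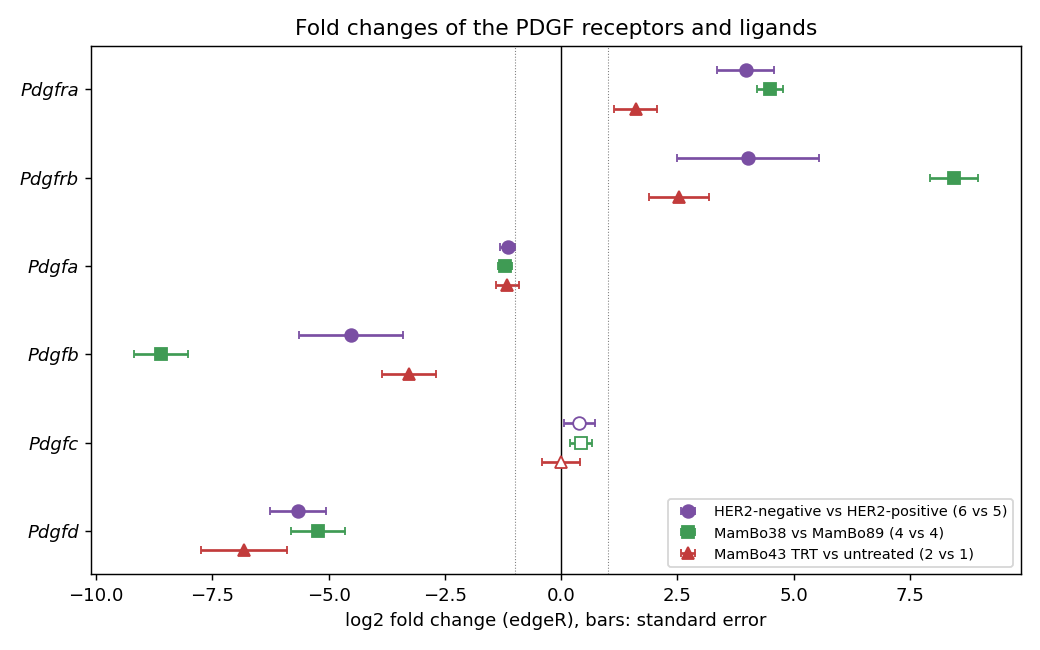
Log2 fold changes of the 6 genes with their standard errors (edgeR) for HER2-negative against HER2-positive libraries (circles), MamBo38 against MamBo89 (squares) and MamBo43 TRT against untreated MamBo43 (triangles). Filled symbols are called and open symbols are not, and dotted lines mark a log2 fold change of 1 in either direction. The receptors lie to the right and Pdgfa, Pdgfb and Pdgfd to the left in all 3 comparisons, which share libraries, while Pdgfc lies near 0.

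To separate the lines, a model with 4 groups (MamBo38, n = 4; MamBo89, n = 4; MamBo43 TRT, n = 2; untreated MamBo43, n = 1) was fitted to 13782 genes, in which the single untreated MamBo43 library is assumed to vary like the other groups. Of the 6 genes, 5 were called between MamBo38 and MamBo89, against 41.9% of all genes. Pdgfrb was higher in MamBo38 by a log2 fold change of 8.46 (SE 0.52, adjusted p = 3.24e-07, edgeR) and Pdgfra by 4.50 (SE 0.28, adjusted p = 3.67e-07). Pdgfa was lower, at -1.21 (SE 0.15, adjusted p = 4.80e-05), and Pdgfd at -5.23 (SE 0.59, adjusted p = 2.42e-05). Among the libraries that share a code, which hold a single MamBo38 library, Pdgfa was -0.95, under the fold minimum. For Pdgfb, 2 counts over the 4 MamBo38 libraries stood against 911 over the 4 MamBo89 libraries, a ratio of scaled counts of 480 in favour of MamBo89 with a 95% counting interval of 132 to 3965 (adjusted p = 6.18e-07). For Pdgfc, the log2 fold change was 0.42 (SE 0.24, adjusted p = 0.142), not called.

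Untreated MamBo43 and the 4 MamBo89 libraries (2 untreated and 2 from trastuzumab schedules), all HER2-positive, differed in 2 of the 6 genes, against 18.9% of all genes. Pdgfrb was higher in MamBo43 by a log2 fold change of 7.35 (SE 0.57, adjusted p = 1.54e-05, edgeR, n = 1 against 4) and Pdgfc by 1.20 (SE 0.35, adjusted p = 0.0342). With untreated libraries only, an alternative added after the data had been seen, Pdgfrb was 6.64 (adjusted p = 0.0124) and Pdgfc 1.34 and not called (adjusted p = 0.25). The differences of Pdgfra (0.24, adjusted p = 0.700), Pdgfa (0.32, adjusted p = 0.363), Pdgfb (0.34, adjusted p = 0.691) and Pdgfd (1.01, adjusted p = 0.310) were not called. The last of these was called when untreated replicate 2 of MamBo38 was left out of the fit (1.01, adjusted p = 0.0584). HER2-positive MamBo43 thus held the B and D chains at levels not distinguished from MamBo89 in the complete fit, beside a beta receptor that MamBo89 had at under 1 CPM.

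Both HER2-negative states differed from each other in receptor makeup. Of the 6 genes, 3 were called between MamBo43 TRT and MamBo38, against 20.4% of all genes. Pdgfrb was higher in MamBo43 TRT by a log2 fold change of 1.43 (SE 0.39, adjusted p = 0.0199, edgeR, n = 2 against 4), while Pdgfra was lower, at -2.66 (SE 0.34, adjusted p = 3.96e-04). Pdgfb was higher, with 70 counts over 2 libraries against 2 counts over 4, a ratio of 61.7 with a 95% counting interval of 16.4 to 519 (adjusted p = 2.21e-04). The values for Pdgfa (0.37, adjusted p = 0.145) and Pdgfd (-0.58, adjusted p = 0.672) were not called, nor was Pdgfc (0.78, adjusted p = 0.0593), which stayed under the fold minimum. Among the libraries that share a code alone, MamBo38 is left with untreated replicate 2, which held 9 counts of Pdgfd. There Pdgfrb was 1.37, Pdgfc 1.47 and Pdgfd -2.17. Without TRT replicate 1, which leaves a single TRT library, Pdgfc was 1.07. Pdgfd turned to 0.73, not called, without untreated MamBo38 replicate 2.

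Beyond these comparisons, MamBo38 against untreated MamBo43 and MamBo43 TRT against MamBo89 were added after the data had been seen, to order the levels. Ordered by mean level, Pdgfrb ran from MamBo43 TRT (295 CPM) through MamBo38 (110 CPM) and untreated MamBo43 (50.9 CPM) to MamBo89 (0.292 CPM). Its neighbours MamBo38 and untreated MamBo43 were not distinguished in the 4-group fit (log2 fold change 1.10, SE 0.57, adjusted p = 0.142, edgeR), in which 35.9% of all genes were called. DESeq2 called that difference (adjusted p = 0.0803), as did edgeR with only the groups of the comparison (adjusted p = 0.00556), without AG3 (adjusted p = 0.00475) and without the MamBo89 withdrawal culture (adjusted p = 0.0905). Pdgfra ran from MamBo38 (921 CPM) through MamBo43 TRT (146 CPM) to untreated MamBo43 (48.0 CPM) and MamBo89 (40.5 CPM), of which the last 2 were not distinguished in the comparison given above. Between MamBo43 TRT and MamBo89, where 39.0% of all genes were called, Pdgfra was higher by 1.85 (SE 0.29, adjusted p = 3.98e-04) and Pdgfc by 1.21 (SE 0.28, adjusted p = 0.00450), the latter only 0.87 and not called without TRT replicate 2.

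Among the ligands, Pdgfa ran from untreated MamBo43 (56.5 CPM) and MamBo89 (45.3 CPM) to MamBo43 TRT (25.4 CPM) and MamBo38 (19.6 CPM), and the step between MamBo89 and MamBo43 TRT stayed under the fold minimum (-0.84, adjusted p = 0.00357, edgeR). Pdgfb ran in the same order, from 14.9 and 11.8 CPM to 1.55 and 0.0234 CPM, and the step from MamBo89 to MamBo43 TRT was called (-2.93, SE 0.49, adjusted p = 6.14e-04). Pdgfd ran from untreated MamBo43 (12.8 CPM) and MamBo89 (6.34 CPM) to MamBo38 (0.171 CPM) and MamBo43 TRT (0.107 CPM), of which the last 2 rest on 13 and 5 counts and were not distinguished. Pdgfc ran from MamBo43 TRT (75.6 CPM) and untreated MamBo43 (75.2 CPM) to MamBo38 (43.9 CPM) and MamBo89 (32.7 CPM), and no pair of neighbours was called (MamBo38 against untreated MamBo43, -0.78, adjusted p = 0.10). Among libraries that share a code, which leave a single library on each side, that last difference was -1.47.

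The MamBo43 line was then compared with itself, before and after trastuzumab. Of the 6 genes, 5 were called (2 higher, 3 lower), against 29.1% of all genes (13.6% higher, 15.5% lower), with 2 TRT libraries against 1 untreated library. Pdgfrb rose by a log2 fold change of 2.53 (SE 0.65, adjusted p = 0.0149, edgeR) and Pdgfra by 1.60 (SE 0.45, adjusted p = 0.0227). Pdgfa fell by 1.16 (SE 0.25, adjusted p = 0.00620) and Pdgfb fell by 3.27 (SE 0.57, adjusted p = 0.00245) on the log2 scale. Pdgfd was covered by 5 counts over both TRT libraries and 326 counts in the untreated library, a ratio of scaled counts of 119 in favour of the untreated library with a 95% counting interval of 50.3 to 368 (adjusted p = 6.23e-04). For Pdgfc the log2 fold change was 0.00 (SE 0.41, adjusted p = 1.0).

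In these bulk cultures, fewer cells of a type and less RNA per cell cannot be told apart. The TRT cultures differed from each other in epithelial markers. The epithelial adhesion gene Epcam stood at 25.1% of the untreated level after withdrawal and at 4.87% under continuous trastuzumab, and the E-cadherin gene Cdh1 at 26.0% and 9.31%. The keratin genes Krt8 and Krt18 stood at 73.3% and 84.2% after withdrawal and at 10.1% each under continuous trastuzumab. Other markers of that list rose, Krt14 from 2.39 CPM untreated to between 9.90 and 111 CPM, and Krt5 from 0 to between 0.0490 and 3.84 CPM. Over the same libraries Pdgfb stood at 12.8% and 7.96%, and Pdgfd at 0.768% and 0.902%. Pdgfa stood at 45.8% and 44.0%, and the receptors at 585% and 575% (Pdgfrb) and 305% and 303% (Pdgfra). The receptor levels of the TRT cultures thus lay closer together than those of Epcam and Cdh1, while Pdgfd rests on 2 and 3 counts and allows no such comparison. The part of the remaining epithelial cells in these values was not tested.

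In MamBo89, which stayed HER2-positive, no member passed the test after trastuzumab. Of the 12046 genes tested, 0 were called by edgeR (0%; 186 at an unadjusted p under 0.05), with n = 2 against 2, while DESeq2 called 3 genes and 0 members. The log2 differences were 0.69 for Pdgfra (adjusted p = 0.944, edgeR), 0.11 for Pdgfa, 0.55 for Pdgfb, 0.17 for Pdgfc and -0.29 for Pdgfd, and Pdgfrb was too low to be tested. Without the parental untreated library, AG3 is the only untreated library (n = 2 against 1), so that trastuzumab and the culture cannot be told apart, and 18.4% of all genes were called. In that fit Pdgfra was 1.02 (adjusted p = 0.0131) and Pdgfrb, with 18 counts in AG3 and 2 over the trastuzumab libraries, was -3.83 (adjusted p = 0.0428). In MamBo38, which stayed HER2-negative, 0 of 11861 genes were called by edgeR (0%; 503 at an unadjusted p under 0.05), while DESeq2 called 4 genes and 0 members, with log2 differences of 0.16 for Pdgfrb, 0.12 for Pdgfra, -0.15 for Pdgfa and 0.20 for Pdgfc, while Pdgfb and Pdgfd were too low to be tested.

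The trastuzumab effect itself was compared between lines, as a difference of log2 fold changes in a fit with 6 groups of line and treatment, chosen after the data had been seen. Against MamBo89, the MamBo43 effect was larger by 5.62 for Pdgfrb (SE 1.07, adjusted p = 0.0144, edgeR), with 22.2% of all genes called. The difference was -1.26 for Pdgfa (adjusted p = 0.0443), -3.82 for Pdgfb (adjusted p = 0.0168) and -6.53 for Pdgfd (adjusted p = 0.00782). The differences for Pdgfra (0.91, adjusted p = 0.222) and Pdgfc (-0.16, adjusted p = 0.893) were not called. Against MamBo38, with 19.6% of all genes called, the difference was 2.37 for Pdgfrb (adjusted p = 0.0331) and 1.47 for Pdgfra (adjusted p = 0.0789). The Pdgfrb value against MamBo89 rests on the low counts of that line. With other size factors or without AG3 it was 4.115 to 5.581. Further differences against MamBo38 were -1.01 for Pdgfa (adjusted p = 0.0912) and -4.96 for Pdgfd (adjusted p = 0.0707), while Pdgfb (-3.12, adjusted p = 0.391) and Pdgfc (-0.21, adjusted p = 0.863) were not called. Between the effects in MamBo38 and MamBo89, edgeR called 0 of 13782 genes (0%; 302 at an unadjusted p under 0.05), with Pdgfrb at 3.25 (unadjusted p = 0.0159, adjusted p = 1.0).

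To ask where a receptor met its ligand, a gene was counted as expressed at 1 CPM or more. The alpha receptor was expressed with Pdgfa and with Pdgfc in all 11 libraries, and with Pdgfb in 7, that is in all 5 HER2-positive and both MamBo43 TRT libraries. The beta receptor was expressed with Pdgfb in 3 libraries, all of them MamBo43, and with Pdgfd in 1, untreated MamBo43. Pdgfra and Pdgfrb were expressed together in 7 libraries, all but MamBo89. At this minimum, MamBo38 thus expressed the beta receptor with neither of its ligands, and MamBo89 expressed the ligands without it. The serum in the medium is a further source of PDGF that was not measured. The pair Pdgfrb and Pdgfb was found in 1 library at 5 CPM and in 5 at more than 3 counts, and the pair Pdgfrb and Pdgfd in 3 at 0.5 CPM and in 4 at more than 3 counts. At these lower minimums untreated MamBo38 replicate 2 (9 counts of Pdgfd) held receptor and ligand together, as did AG3 (18 counts of Pdgfrb) and, at more than 3 counts, parental MamBo89 (4 counts of Pdgfrb).

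**Figure D3:**
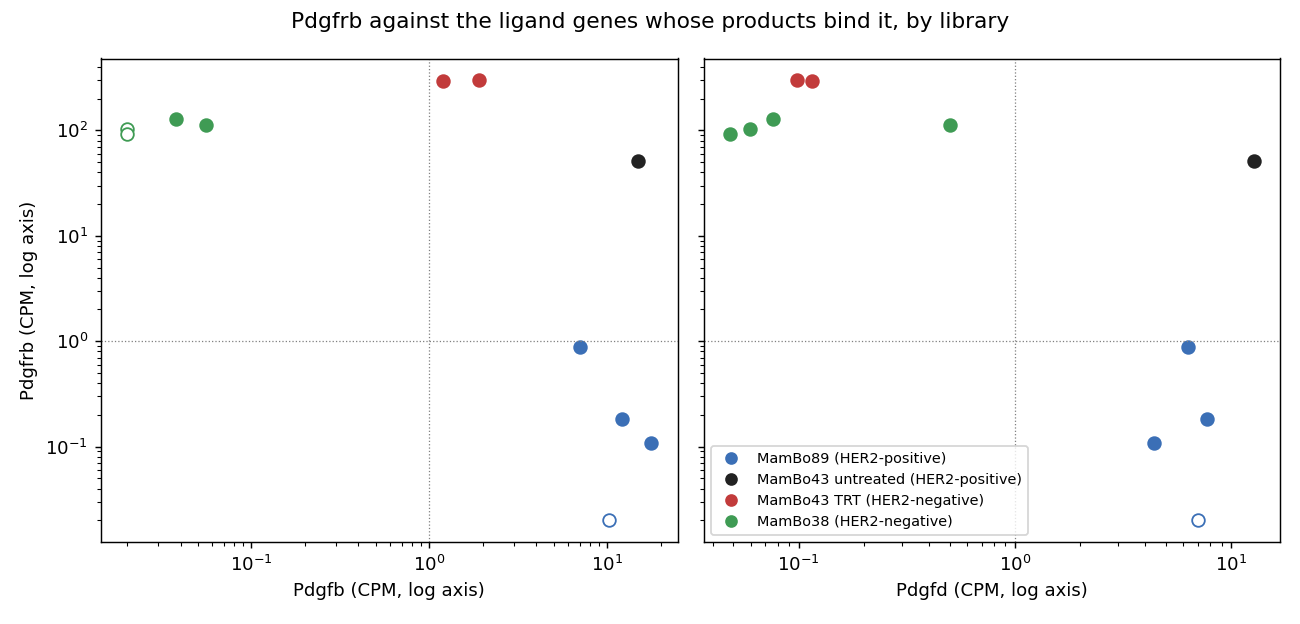
Pdgfrb (vertical) against Pdgfb (left) and Pdgfd (right), each in CPM on a log axis, with 1 point per library and dotted lines at 1 CPM. Open points have 0 counts of a gene and are drawn at the edge of the axis. Untreated MamBo43, at 50.9 CPM of Pdgfrb, is in the upper right in both panels, MamBo38 is in the upper left and MamBo89 in the lower right.

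Levels of different genes were compared per kilobase of exon, and the orders are those of the group means. In MamBo38 the order was Pdgfra (91.8 ± 7.75 CPM per kb, SD, n = 4), Pdgfrb (20.0 ± 2.85), Pdgfc (8.62 ± 2.29) and Pdgfa (6.30 ± 0.950). In MamBo43 TRT it was Pdgfrb (53.9 ± 0.615 CPM per kb, SD, n = 2), Pdgfc (14.8 ± 4.40), Pdgfra (14.6 ± 0.0488) and Pdgfa (8.14 ± 0.221). Pdgfc was below Pdgfra after withdrawal (11.7 and 14.6) and above it under continuous trastuzumab (18.0 and 14.5). Untreated MamBo43 had Pdgfa (18.1 CPM per kb), Pdgfc (14.8), Pdgfrb (9.29), Pdgfra (4.79), Pdgfd (4.04) and Pdgfb (3.59). In MamBo89 the order was Pdgfa (14.5 ± 2.06 CPM per kb, SD, n = 4), Pdgfc (6.42 ± 1.37), Pdgfra (4.04 ± 1.70), Pdgfb (2.84 ± 1.08) and Pdgfd (2.01 ± 0.448), with Pdgfrb at 0.0534 ± 0.0724. MamBo38 was thus led by the alpha receptor, MamBo43 TRT by the beta receptor, and the HER2-positive libraries by the A chain. With the longest coding transcript as the length, the order changed only for Pdgfb and Pdgfd in untreated MamBo43.

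The ratio of the summed receptors to the summed ligands, per kilobase, was 6.80 to 8.52 in MamBo38, 2.59 and 3.36 in MamBo43 TRT, 0.347 in untreated MamBo43 and 0.129 to 0.224 in MamBo89. The 4 groups did not overlap in this ratio. Per kilobase, Pdgfra exceeded Pdgfrb by a ratio of 3.92 to 5.55 in MamBo38, while in MamBo43 Pdgfrb exceeded Pdgfra by 1.94 untreated and by 3.68 and 3.72 in the TRT cultures. Among the ligands, Pdgfb and Pdgfd together made up 18.3% to 19.6% of the sum in MamBo89 and 18.8% in untreated MamBo43, against 1.23% and 2.39% in MamBo43 TRT and 0.0937% to 1.32% in MamBo38. Pdgfc was 23.4% to 26.6% of the sum in MamBo89, 36.5% in untreated MamBo43, 57.2% and 68.4% in MamBo43 TRT and 40.9% to 65.0% in MamBo38. In untreated MamBo38 replicate 2, where Pdgfc had the lowest share of that line, Pdgfa led with 57.7%. A share depends on the other ligands, and the level of Pdgfc itself had a log2 fold change of 0.00 within MamBo43.

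**Figure D4:**
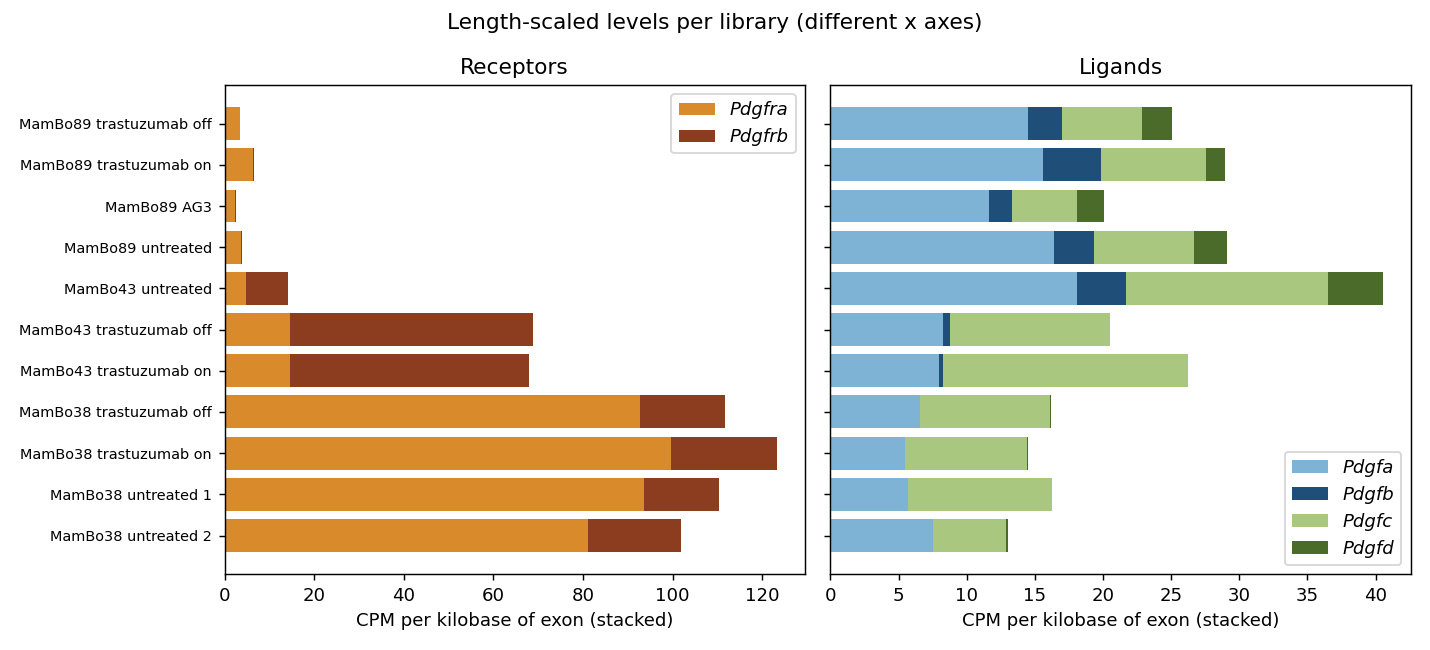
Stacked bars of receptor (left) and ligand (right) levels in CPM per kilobase of exon, 1 bar per library, with a separate axis for each panel. "On" is 60 days of trastuzumab and "off" is 30 days followed by 30 days without. The receptor sum runs from 2.60 in AG3 to 123 in MamBo38 under trastuzumab, and the ligand sum from 13.0 in an untreated MamBo38 library to 40.5 in untreated MamBo43.

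Genes that mature, bind or relay PDGF were read from lists, together with genes that PDGF induces and other kinases inhibited by sunitinib, a drug used in the study. Of 49 such genes, 44 could be tested between HER2-negative and HER2-positive libraries, of which 7 were higher, 16 lower and 21 not called (15.9% and 36.4%, beside 15.8% and 17.0% of all genes tested). Their median log2 fold change was -0.53, beside -0.04 over all genes tested. Of the 6 genes that process or activate ligands, 2 rose and 2 fell. Plat and Plau, which encode plasminogen activators that can activate the C and D chains, were higher by 1.94 (SE 0.53, adjusted p = 0.0101, edgeR) and 4.29 (SE 0.74, adjusted p = 6.25e-04). The proprotein convertase genes Pcsk5 and Pcsk7 were lower, at -7.23 and -1.07, while Furin (-0.32, adjusted p = 0.235) and Pcsk6 (-2.98, adjusted p = 0.141) were not called.

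Of the 5 genes of ligand binding and receptor partners, Sparc, whose matrix protein binds PDGF, was higher by 3.16 (adjusted p = 0.0137, edgeR), and Lrp1, an endocytic receptor and target of the beta receptor, by 3.57 (adjusted p = 0.00345). The scaffold genes Slc9a3r1 and Slc9a3r2, whose products bind the tail of the beta receptor, were lower, at -3.84 and -1.91. Of the 16 adaptors and effectors, 5 were called, a share close to the 32.8% of all genes. Of these, 1 was higher, the Src-family kinase gene Fyn (1.82), and 4 were lower, the kinase gene Yes1 (-1.51), the adaptor genes Nck1 (-1.92) and Nck2 (-3.14), and Rasa1, a Ras GTPase-activating protein (-1.16). Of the 6 phosphatases and ubiquitin ligases that act on the receptors, 0 were higher and 3 were lower, all phosphatases: Ptpn1 (-1.14), Ptpn2 (-1.23) and Ptprj (-3.71). Grb2, Shc1, Src and Ptpn11, which carry the receptor signal into the cell, had log2 fold changes between -0.49 and -0.09 and were not called.

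Of the 9 immediate early genes that PDGF induces in fibroblasts, 2 were higher and 4 lower, so that the list moved in both directions. Fosl1, an AP-1 subunit, was higher by 6.40 and Myc by 1.67, while Fos (-2.04, adjusted p = 0.0125, edgeR), Fosb (-1.21, adjusted p = 0.0697), Egr1 (-1.36) and Ier2 (-1.31) were lower. Of 7 other kinases that the multikinase inhibitor sunitinib, used in the study, also inhibits, 2 could be tested, and Kit, a receptor tyrosine kinase of the same class as the PDGF receptors, was lower, at -5.78 (SE 1.52, adjusted p = 0.00801, edgeR), with Flt1 not called (-0.83, adjusted p = 0.145).

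In MamBo43 TRT against untreated MamBo43, 45 of the 49 genes could be tested, of which 6 were higher and 17 lower (13.3% and 37.8%, beside 13.6% and 15.5% of all genes tested), with a median of -0.72 beside 0.00 over all genes. Those higher were Plat (1.60, adjusted p = 0.0999, edgeR), Plau (1.61), Lrp1 (1.296), Fyn (2.13), Fosl1 (4.39) and Myc (2.26). Among those lower were Nrp1, a co-receptor (-1.94), Gab1 (-1.25) and Pik3r1 (-1.93), which couple receptors to PI 3-kinase, Rasa1 (-1.31), Yes1 (-1.03), Nck1 (-2.91), Nck2 (-3.16), Slc9a3r1 (-1.90), Slc9a3r2 (-2.92), Ptprj (-2.70), Pcsk5 (-4.92) and Pcsk7 (-1.02). Fos (-1.99), Egr1 (-1.59), Ier2 (-1.24), Kit (-4.05) and Ret (-3.37, adjusted p = 0.0649) completed them. Sparc (0.63, adjusted p = 0.708) was not called within this line.

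Markers of fibroblasts, cells known for PDGF receptors, differed between the lines and not all in the same direction. The summed level of 8 fibroblast markers was 10.9 to 32.4 CPM in MamBo89, 235 CPM in untreated MamBo43, 6509 to 7015 CPM in MamBo43 TRT and 2880 to 3509 CPM in MamBo38. It was carried by the collagen genes Col1a1 and Col1a2 and by decorin (Dcn), with Lum at 0 in all 11 libraries and Dpt and Fap at no more than 0.167 and 0.230 CPM. Thy1 was at 6.10 and 14.0 CPM in MamBo43 TRT and 2.15 CPM in untreated MamBo43, but at no more than 0.0556 CPM in MamBo38 and at 0 in MamBo89. Pi16 was at 0.721 to 1.78 CPM in MamBo38 and at no more than 0.192 CPM elsewhere. Of 10 pericyte and smooth muscle markers, Cspg4 (6.08, adjusted p = 4.51e-04, edgeR), Des (4.40) and Acta2 (8.37) were higher in HER2-negative libraries and Notch3 was lower (-3.42), and Rgs5, Kcnj8 and Myh11 were at no more than 0.117, 0.0961 and 0.537 CPM. The summed level of that list was 151 to 238 CPM in MamBo89, 919 CPM in untreated MamBo43, 149.9 to 560.2 CPM in MamBo43 TRT and 69.9 to 104 CPM in MamBo38. The 6 endothelial markers summed to at most 0.890 CPM in any library. The leukocyte and platelet genes Adgre1, Cd3e and Pf4, markers of cells that release PDGF in tissues, were at 0 in all libraries, and that list of 8 genes summed to 34.1 to 54.7 CPM in MamBo38 and to 2.39 to 23.3 CPM elsewhere, with Cd68 called higher in HER2-negative libraries (1.67, adjusted p = 0.0885). The part of these markers in the receptor levels was not tested.

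The genes whose profile over the 11 libraries was most like a member were found by the root-mean-square difference of centred log2(CPM + 1) values. For Pdgfrb they were Ogn (0.588), Sod3 (0.593) and Arhgdib (0.723), and for Pdgfra Fam167b (0.402), Ugt1a7c (0.406) and Dixdc1 (0.410). For Pdgfb they were Tmem51 (0.229), Ifnlr1 (0.264) and Krtcap3 (0.284), and for Pdgfd Shank2 (0.302), Calml3 (0.349) and Timd2 (0.364). For Pdgfa they were Abhd11 (0.144), Rfx2 (0.159) and Acaa1b (0.162), and for Pdgfc Samd14 (0.208), Setbp1 (0.232) and Crtc1 (0.237). The neighbours of Pdgfrb were the least close of the 6 sets.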

How the data were processed

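RNA-seq libraries of 11 MamBo cultures were prepared by the authors with a TruSeq v2 kit, read in single-end mode, aligned with STAR 2.5 and counted with RSEM 1.3.0, per the submitters' processing notes, which name the build mm10. The authors deposited expected counts per gene, not normalized. The values were rounded to whole numbers before the fits, and whether any was fractional as deposited was not checked. The annotation and any filter of the authors are not given in the sources used here.

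From these counts, genes were kept by filterByExpr (minimum count 10, minimum total 15), scaled by TMM and tested in R 4.3.3 with edgeR 4.0.16 (glmQLFit, glmQLFTest). The call thresholds, taken from the study, were an adjusted p of 0.1 and a log2 fold change of 1 in size. The SE was taken as the size of the log2 fold change over the square root of F, and log2 fold changes use a prior count of 0.125. Intervals and the floor of 3 counts cover counting error only, at 95% confidence, because PCR copies could not be told from separate molecules. The fits were checked on simulated counts.

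Groups came from the sample titles. HER2 status, tumor and the clone came from the study's methods. The labels do not say that libraries of a group are separate cultures of one condition, so p-values measure the spread between these libraries. Of 13 pairs of libraries within a line, none was identical or within sampling noise. The text names all 6 members, the called genes of pathway lists, and the 3 genes most like each member. Members and lists were chosen with earlier results of these data known. Alternatives were DESeq2 1.42.0, RLE size factors, other filters and thresholds, covariates for tumor and code, subsets and summed counts, and leaving out each library. Coordinates and exon lengths are those of GENCODE M21 on GRCm38.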

Additional observations from a re-analysis of the deposited data

Results flagged for a closer look

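Pdgfrb in untreated MamBo43 was 50.9 CPM, far from the other 4 HER2-positive libraries, which had 0 to 0.877 CPM. Pdgfd in untreated MamBo38 replicate 2 was 0.501 CPM (9 counts), apart from the other 5 HER2-negative libraries at 0.0480 to 0.115 CPM and from the other 3 MamBo38 libraries at 0.0480 to 0.0759 CPM. That library is also the only MamBo38 library that shares its name code with the other lines. These are 3 of 24 groups examined, and chance sets a sample apart in about 1 group of 20 by this criterion. The groups overlap, and both Pdgfd flags are the same library, so that the number of flags cannot be set against that rate. The Pdgfrb flag compares MamBo43 with another line.

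The trastuzumab effect differed between lines for some members, in fits that also called many genes outside the members, as given above. The effect in MamBo43 minus that in MamBo89 was 5.62 for Pdgfrb (adjusted p = 0.0144, edgeR), -1.26 for Pdgfa (adjusted p = 0.0443), -3.82 for Pdgfb (adjusted p = 0.0168) and -6.53 for Pdgfd (adjusted p = 0.00782). The effect in MamBo43 minus that in MamBo38 was 2.37 for Pdgfrb (adjusted p = 0.0331), 1.47 for Pdgfra (adjusted p = 0.0789), -1.01 for Pdgfa (adjusted p = 0.0912) and -4.96 for Pdgfd (adjusted p = 0.0707). Each rests on 1 untreated MamBo43 library, and that for Pdgfd against MamBo38 on 5 counts in MamBo43 TRT and 13 in MamBo38.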

How the results depend on the processing

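Of 890 log2 fold changes of members recomputed under alternatives, 842 kept their direction and side of the threshold, 16 were weaker, 10 stronger and 22 reversed, and of 181 counts 15 moved by over 1.5 times. No paired analysis was possible because the labels number no replicates, and a shared trastuzumab schedule is a condition rather than a shared culture. With the schedule as a covariate, added after the data had been seen, 5 members were again called between MamBo38 and MamBo89. Untreated MamBo43 against untreated MamBo89 alone gave 1 called member. Requiring 10 counts in every library left 3 members testable, of which 2 were called by HER2 status, 2 in MamBo38 against MamBo89, 2 in MamBo43 TRT against untreated, 1 in MamBo43 TRT against MamBo38, 1 in untreated MamBo43 against MamBo89, 2 in MamBo38 against untreated MamBo43 and 2 in MamBo43 TRT against MamBo89. The share of all genes called was not taken for most of these alternatives, so the counts of called members here are no result about the members. By HER2 status, counts summed per line gave 0 called members. Pdgfrb was 2.55 in untreated libraries (adjusted p = 0.374, edgeR), 1.74 with tumor as a covariate and 1.72 within tumor B, none of them called. The values by tumor rest on a single HER2-positive library. Within tumor B, Pdgfra was 3.75 and Pdgfb -4.81, neither of them called and with the same limit. Pdgfa was -0.95 with the code as a covariate and -0.93 among libraries sharing a code. In summed counts, where the fit has few samples, Pdgfrb was 2.98, Pdgfra 3.63, Pdgfa -1.18, Pdgfb -4.12 and Pdgfd -6.12. Pdgfc, never called by HER2 status, reversed to -0.16 in untreated libraries, -0.47 with tumor as a covariate and -0.50 within tumor B, and to -0.26 in MamBo38 against MamBo89 among libraries sharing a code. In MamBo43 TRT against untreated it was -0.022 with DESeq2, -0.022 with RLE factors and -0.024 under the strict filter, and -0.33 to 0.25 when each library was left out. Leaving out each library gave 3.70 to 9.11 for Pdgfrb by HER2 status, the highest without untreated MamBo43. It gave -0.89 to 0.73 for Pdgfd in MamBo43 TRT against MamBo38. In MamBo89 under trastuzumab it gave -0.11 to 0.35 for Pdgfa, -0.10 to 0.50 for Pdgfc, -0.66 to 0.00066 for Pdgfd and 0 to 2 called members. In MamBo38 under trastuzumab it gave -0.0015 to 0.31 for Pdgfrb, -0.33 to 0.045 for Pdgfa and -0.22 to 0.81 for Pdgfc. Within the code of MamBo38, Pdgfa was 0.045 and Pdgfc -0.22. Without the AG3 clone, Pdgfa was -0.11 and Pdgfc -0.10 in MamBo89, and the effect in MamBo43 minus MamBo89 was 0.094 for Pdgfc. Pdgfrb with Pdgfb was found in 1 library at 5 CPM and 5 at more than 3 counts, and Pdgfrb with Pdgfd in 3 at 0.5 CPM and 4 at more than 3 counts. The cause of these changes was not tested. Depth limits Pdgfb and Pdgfd in MamBo38, Pdgfd in MamBo43 TRT and Pdgfrb in MamBo89, which rest on 0 to 18 counts a library.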

Other observations

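Pdgfrl, which encodes a protein similar to the ligand-binding part of the beta receptor and is no member of the PDGF receptor set, was looked at after its values were seen. It averaged 18.2 CPM in HER2-negative and 8.36 CPM in HER2-positive cultures, a log2 difference of 1.11 (SE 0.67, adjusted p = 0.185, edgeR), not called.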
